A study of Homo sapiens with 6 samples.

Results

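Histone genes supply the protein spools on which DNA is wound, and they were read here by 108 of the 54675 probe sets of the array table, the units that each measure a gene or a few near-identical genes. The 108 were every probe set whose annotated symbol was a linker histone (H1- and a number), a gene of the H2AC, H2BC, H3C or H4C series, or 1 of the variants H2AX, H2AJ, H2AZ1, H2AZ2, H3-3A, H3-3B, MACROH2A1 and MACROH2A2. Of these, 80 carried 1 symbol and covered 56 genes, 3 of them pseudogenes (H1-9P, H4C10P and H2AC5P). A further 20 carried the symbols of several histone genes and 8 those of a histone gene and another gene, so that 76 histone genes were named in all, of 21357 genes that the annotation names. By gene class, 71 probe sets belonged to the clustered genes and 37 to the replication-independent genes. By probe set type, 42 had identifiers that end in _x_at or _s_at, which marks probes that can bind several transcripts, and 66 did not.

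The core histones H2A, H2B, H3 and H4 form the nucleosome, and the linker histone H1 binds the DNA between nucleosomes. Clustered histone genes lie together, mostly on the short arm of chromosome 6 with smaller groups on chromosome 1, are transcribed mainly in S phase when new DNA is packaged, and give mRNAs that typically end in a stem-loop in place of a poly(A) tail. Replication-independent variants such as H2A.Z, H3.3 and macroH2A are made through the cell cycle from ordinary polyadenylated mRNAs and replace the core histones at particular sites. H2AX was counted with the replication-independent genes. EZH2 is itself a histone enzyme: within Polycomb repressive complex 2 it places methyl groups on lysine 27 of histone H3.

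Total RNA was measured on 6 Affymetrix arrays, 1 per sample, from 2 human diffuse large B-cell lymphoma cell lines, KARPAS-422 and Pfeiffer, both known to carry an EZH2 mutation. In each line, cells given a lentiviral short hairpin RNA against EZH2 (shEZH2) for 10 days were compared with cells given a hairpin against a sequence absent from mammals (shNTC). KARPAS-422 had 2 arrays per arm, titled as biological replicates, and Pfeiffer had 1 per arm. Both arms of both lines had polybrene during infection and puromycin selection afterwards, and each arm rested on 1 hairpin sequence, so another target of that hairpin cannot be told apart from EZH2. The labels do not say that replicates were separate infections, so p-values measure the spread between these arrays, which may be technical. RNA was pooled from all cells of a culture, in which fewer cells of a type and less RNA per cell cannot be told apart.

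The targeted gene checked the labels. In KARPAS-422, EZH2 read 11.71 and 11.57 (log2 MAS5 signal) with shNTC and 10.52 and 10.55 with shEZH2, a fall of 1.11 (SE 0.10, limma adjusted p = 0.00125) that left 46.3% of the signal. Pfeiffer EZH2 went from 11.65 to 10.24, which left 37.6%. Of 8 B-cell markers, the 7 that the annotation names (among them MS4A1, CD79B and PAX5) read above the median of all values on all 6 arrays. T and NK cell markers above that median numbered 1 to 3 of 7 per array, led by CD3D and CD3G in KARPAS-422 and CD8A in Pfeiffer. The log2 of the summed linear signal of that list, from the brightest probe set per gene, was 12.64 and 12.77 in KARPAS-422 shNTC. It was 12.11 and 11.96 in shEZH2, and 13.52 and 13.63 in the Pfeiffer arms. A few bright genes can set such a sum. Above the median were 0 to 2 of 6 myeloid markers and 3 to 6 of 8 fibroblast or epithelial markers. The latter were led by DCN in KARPAS-422 and EPCAM in Pfeiffer. The log2 of the summed linear signal ran from 7.12 to 7.81 for the myeloid list and from 13.17 to 13.77 for the other. Within KARPAS-422, CD3D fell by 0.77 (limma adjusted p = 0.0121) and CD3G by 0.64 (0.0492), the B-cell marker CD79B rose by 0.39 (0.0241), and no tested myeloid, fibroblast or epithelial marker was called. The part of these markers in the histone values was not tested. Across the probe sets tested, replicate arrays correlated at r = 0.973 (shNTC) and 0.979 (shEZH2), and KARPAS-422 arrays of different arms at 0.944 to 0.948.

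The test took every probe set that exceeded 6.21, the median of the whole table, on 2 or more of the 6 arrays, which kept 31099 probe sets and 72 of the 108 histone probe sets. Those 72 were 44 clustered (of 71) and 28 replication-independent (of 37). Of the 36 not tested, 30 had no array and 6 had 1 array above the median, and their values lay between 0.85 and 6.79. They included the only probe sets of 1 symbol for the linker genes H1-1, H1-3, H1-4 and H1-5, the oocyte linker gene H1-8 and the testis linker gene H1-7 (on 3 probe sets), H2BC1, H2BC3, H2BC13 and H2BC17, H3C1, H3C2, H3C3 and H3C8, H4C1, H4C7, H4C9 and H4C13, MACROH2A2, and the 3 pseudogenes. In addition, 6 tested clustered probe sets had fewer than 2 arrays above the median outside the KARPAS-422 shEZH2 group, and so could enter the test through the group in which they were high. These 6 read H2BC4, H2AC15, H2BC11, H2BC14, H3C6 and an H2A/H3 pair, and 3 of them were called higher.

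Many probe sets of clustered histone genes were higher in KARPAS-422 cells with the EZH2 hairpin, while most replication-independent probe sets did not pass the test in either direction. At a limma adjusted p under 0.05 over all 31099 probe sets, 27 histone probe sets were higher with shEZH2 and 7 were lower, of 72 tested, where 12.03% of every probe set tested were higher and 8.06% lower. Clustered probe sets made up 25 of the 27: 25 of 44 (56.8%) rose and 1 fell, and their median difference was 1.40 on the log2 scale, against 0.04 over every probe set tested. These are counts of probe sets, not of genes: of the 25, 14 carried 1 symbol and read 12 genes, and 11 carried several symbols, some of them the same. On clustered probe sets neither shared nor of several genes, 6 of 19 rose. Among replication-independent probe sets, 2 of 28 rose and 6 fell, with a median of -0.20. The 2 classes were not matched for signal level. Clustered probe sets called higher had a median KARPAS-422 shNTC level of 6.58, where MAS5 spreads signals on the log scale. With 64 added to each linear signal the clustered median was 1.02. Both shEZH2 arrays lay above both shNTC arrays for all 27 probe sets called higher. With 2 arrays per arm, choosing by the call favours that outcome. Of the 72 tested, 25 were called higher and by at least 2-fold, where 5.65% of every probe set tested was called higher by that much. By family of clustered genes, 12 of 16 H2B, 7 of 13 H2A, 2 of 2 mixed H2A/H3, 1 of 4 H3 and 1 of 2 H1 probe sets rose, and in H4 2 of 7 rose and 1 fell. Of the 27, 17 were called in every alternative setting that tested them, and 20 when any 1 of the 4 KARPAS-422 arrays was left out. None of the 7 lower calls was called in all of these settings. The H2BC4 probe set and the H2A/H3 pair are among the 17. Neither could be tested with a filter on the 4 arrays other than KARPAS-422 shEZH2.

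**Figure D1:**
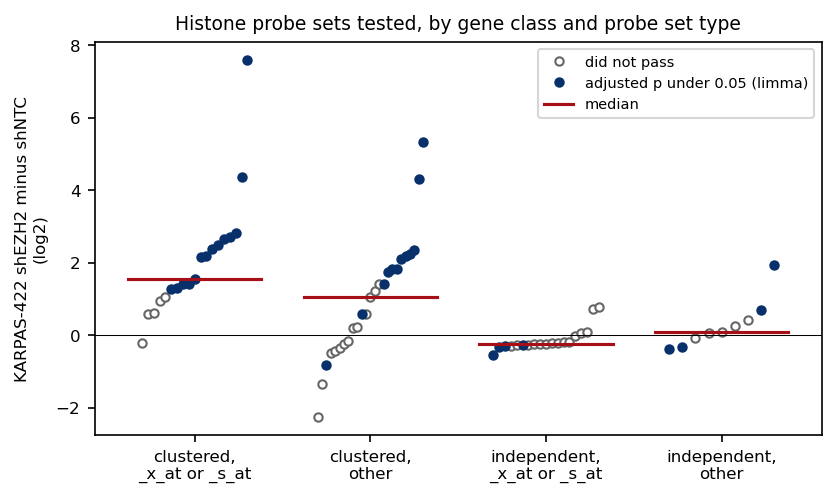
Difference between KARPAS-422 shEZH2 and shNTC (log2 MAS5 signal, 2 arrays per arm) for the 72 histone probe sets tested, 1 point each, split by gene class and by whether the identifier ends in _x_at or _s_at. Filled points passed limma's adjusted p of 0.05 and the bars are medians; clustered probe sets sit mostly above 0 in both types (medians 1.54 and 1.05), and replication-independent ones near 0 (medians -0.24 and 0.08).

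The probe sets annotated to H2AC6 alone and to H2BC4 alone gave the largest differences among probe sets of 1 symbol. That of H2AC6, a gene for a core histone H2A, is of the shared type and may bind other H2A transcripts too, while that of H2BC4 is not. H2AC6 read 2.51 and 3.97 in KARPAS-422 with shNTC and 10.86 and 10.81 with shEZH2, and in Pfeiffer it went from 7.99 to 10.44. The control arrays of KARPAS-422 were low and far apart, while the shEZH2 arrays nearly coincided. The KARPAS-422 difference was 7.60 (SE 0.43, limma adjusted p = 2.20e-04) and the Pfeiffer difference 2.45. H2BC4, a core histone H2B gene, read 2.33 and 3.13 with shNTC and 8.19 and 7.93 with shEZH2, and in Pfeiffer 5.60 and 7.94. Its difference was 5.33 in KARPAS-422 (SE 0.44, limma adjusted p = 9.21e-04) and 2.33 in Pfeiffer. The H2BC4 probe set was above the table's median on shEZH2 arrays alone, and so entered the test through them. Tested probe sets annotated to H2BC4 with other H2B genes gave 1.40, 1.54 and 2.24 in KARPAS-422, and 0.31, 0.35 and 1.48 in Pfeiffer. The control values of both genes lay below the table's median in KARPAS-422, where MAS5 spreads dim signals on the log scale, so the sizes are uncertain: with 64 added to each linear signal the differences were 4.67 for H2AC6 and 2.22 for H2BC4, both still called.

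H2AC6 and H2BC4 are neighbours transcribed away from each other, with starts 246 bases apart, so both lie beside the same 245 bases of DNA. Upstream windows of RefSeq genes (GRCh38.p14) were read for 25 of the 27 clustered genes tested on probe sets of 1 symbol, all but H2BC12L and H3C11. The 250 bases before the start are shown for 4 of them, to set genes called higher side by side with 1 that was not called. H2AC6 had the largest difference, H2BC12 was called higher on a probe set that is not shared, H1-2 is the linker gene called higher, and H2AC4 was not called (difference -0.36, SE 0.33, limma adjusted p = 0.479). Capitals mark matches, on either strand and with overlaps kept, to the octamer ATTTGCAT bound by OCT1 and OCT2, the TATA box TATAAA, the CCAAT box CCAAT and the core of an interferon response element, which is GAAA, any 2 bases and GAAA. Each window runs 5′ to 3′ along the gene's own strand, and for H2BC12 it is 1 of 2 starts listed.
H2AC6 (chr6:26123922-26124171, strand +): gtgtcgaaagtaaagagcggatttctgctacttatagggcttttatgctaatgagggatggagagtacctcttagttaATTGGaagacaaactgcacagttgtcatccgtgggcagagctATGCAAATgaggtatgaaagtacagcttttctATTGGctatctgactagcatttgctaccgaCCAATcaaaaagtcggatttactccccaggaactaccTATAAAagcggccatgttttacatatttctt
H2BC12 (chr6:27146856-27147105, strand minus): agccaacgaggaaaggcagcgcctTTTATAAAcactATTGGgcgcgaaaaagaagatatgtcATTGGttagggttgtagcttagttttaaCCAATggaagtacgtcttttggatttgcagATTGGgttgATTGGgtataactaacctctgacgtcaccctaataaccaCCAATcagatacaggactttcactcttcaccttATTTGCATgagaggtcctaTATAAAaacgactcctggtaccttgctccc
H1-2 (chr6:26056471-26056720, strand minus): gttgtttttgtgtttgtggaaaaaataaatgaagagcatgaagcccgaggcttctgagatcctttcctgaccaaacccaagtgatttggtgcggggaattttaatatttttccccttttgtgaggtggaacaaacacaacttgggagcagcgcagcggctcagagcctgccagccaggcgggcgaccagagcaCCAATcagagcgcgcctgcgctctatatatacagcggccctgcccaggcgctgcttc
H2AC4 (chr6:26033619-26033868, strand minus): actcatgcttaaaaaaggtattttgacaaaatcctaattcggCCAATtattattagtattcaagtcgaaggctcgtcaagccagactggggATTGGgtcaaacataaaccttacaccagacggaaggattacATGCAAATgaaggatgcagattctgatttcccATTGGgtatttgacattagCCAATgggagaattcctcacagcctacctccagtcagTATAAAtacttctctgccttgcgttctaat

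The H2AC6 window held the octamer 130 bases before the start, a TATA box at 31 and 3 CCAAT matches. In H2BC12 the octamer began 49 bases before the start, with 6 CCAAT matches and 3 TATA matches, while H1-2 had a single CCAAT match at 57. H2AC4, which was not called, also held the octamer (at 118), a TATA box at 30 and 4 CCAAT matches. Over the genes read, the octamer lay in the windows of 7 of 11 genes called higher and 6 of 14 not called, and in 2.03% of the 27305 genes with a window. Of those 11 genes, 5 were called on shared probe sets alone, and the octamer lay in 3 of the other 6. The windows of 3 divergent pairs among the genes read, H2AC6 and H2BC4 among them, overlap, so the same bases were counted for both genes. The TATA box was found in 7 of 11 and 9 of 14 (13.0% of genes), CCAAT in 10 of 11 and 11 of 14 (37.0%), and the interferon element core in none of the 25 (3.71%). These are matches of letters in this window and were not tested for binding.

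Further H2A genes also rose in KARPAS-422. H2AC8 read 1.35 and 2.39 with shNTC and 5.91 and 6.45 with shEZH2, and 6.74 and 7.88 in the Pfeiffer arms. All 4 KARPAS-422 values lay below the Pfeiffer control, and the arms of KARPAS-422 did not overlap. The difference was 4.32 (SE 0.62, limma adjusted p = 0.00584); it fell to 2.16 with 16 and to 1.02 with 64 added to each linear signal, and without shEZH2 replicate 2 it was 4.05 with an adjusted p of 0.0542. H2AC14, on a shared probe set, read 6.46 and 6.20 with shNTC and 8.55 and 8.48 with shEZH2, a difference of 2.19 (SE 0.19, limma adjusted p = 0.00114). In Pfeiffer it read 8.56 and 8.54, so the shNTC arm of Pfeiffer already stood at the level of the KARPAS-422 shEZH2 arrays. H2AC15 read 6.14 and 6.61 with shNTC and 8.09 and 8.30 with shEZH2, a difference of 1.83 (SE 0.29, limma adjusted p = 0.00769), or 1.72 with an adjusted p of 0.0634 without shEZH2 replicate 2. Pfeiffer H2AC15 went from 5.66 to 6.05, and the gene's other probe set was too dim to test.

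Of 3 tested shared probe sets annotated to the same 2 H2A genes of the chromosome 1 group, H2AC18 and H2AC19, 2 rose and 1 did not pass. The first read 9.93 and 9.77 with shNTC and 12.65 and 12.35 with shEZH2 in KARPAS-422, and 10.27 and 11.75 in Pfeiffer, a KARPAS-422 difference of 2.65 (SE 0.13, limma adjusted p = 1.41e-04). The second read 8.65 and 8.40, then 11.48 and 11.22, and 9.40 and 10.32 in Pfeiffer, a difference of 2.82 (SE 0.15, limma adjusted p = 1.66e-04). Both were bright in every array, and the arms were far apart relative to the replicates. The third was dimmer, with 6.49 and 5.29 with shNTC and 6.73 and 6.24 with shEZH2, so that its arms overlapped (difference 0.59, SE 0.50, limma adjusted p = 0.432), and it read 4.82 and 6.24 in Pfeiffer, a larger difference of 1.42. Of the other H2A probe sets of several genes, 1 rose by 1.41 (limma adjusted p = 0.0121; 1.19 and 0.078 without shEZH2 replicate 2) and 1 did not pass (0.95, adjusted p = 0.0507). H2AC4, H2AC16, H2AC17 and H2AC25 differed by -0.36, 0.22, 1.23 and -0.44 and did not pass, with limma adjusted p from 0.0918 (H2AC17) to 0.829 (H2AC16).

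H2B probe sets gave 12 of the 25 clustered calls in the higher direction. H2BC5 had 2 tested probe sets, both of the shared type. The first read 9.59 and 9.50 with shNTC and 12.03 and 12.02 with shEZH2, a difference of 2.48 (SE 0.10, limma adjusted p = 9.38e-05), and it went from 9.24 to 10.71 in Pfeiffer. The second read 9.43 and 8.30, then 11.87 and 11.26, a difference of 2.70 (SE 0.36, limma adjusted p = 0.00442), and 9.44 and 10.00 in Pfeiffer. They moved the same way in both lines, with the wider replicate spread in the second, whose call was lost without the intensity trend in the variance model (adjusted p = 0.0694). H2BC9 differed by 2.16 (SE 0.18), H2BC12L by 1.31 (SE 0.10) and H2BC6 by 1.27 (SE 0.13), with limma adjusted p between 6.62e-04 and 0.00169. All 3 are read by shared probe sets, and their Pfeiffer differences were 0.62, 1.11 and 0.63. H2BC12L lies on chromosome 21 and was counted as clustered by its symbol alone.

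H2BC12, read by a probe set of the other type, was bright in every array. It read 13.00 and 12.96 with shNTC and 13.58 and 13.54 with shEZH2, a difference of 0.58 (SE 0.07, limma adjusted p = 0.0041; 0.0807 without the intensity trend). In Pfeiffer it rose from 11.84 to 12.97, a difference of 1.13. Of the H2B probe sets annotated to several genes, 5 of 5 passed, with differences from 1.40 to 2.24. The largest read 5.46 and 5.54 with shNTC and 7.58 and 7.90 with shEZH2 in KARPAS-422, and 6.61 and 8.09 in Pfeiffer (difference 2.24, SE 0.26, limma adjusted p = 0.003; 1.35 with 64 added to each linear signal). The smallest (1.40, limma adjusted p = 0.0333) lost its call in 7 alternatives, among them leaving out shEZH2 replicate 1 (1.66, 0.0664), shEZH2 replicate 2 (1.13, 0.153) or shNTC replicate 2 (0.85, 0.0599). A further one (1.41, limma adjusted p = 0.0168) missed the threshold without shEZH2 replicate 1 (0.0961) or shEZH2 replicate 2 (0.068) and was 0.70 with 64 added. H2BC21, H2BC11 and H2BC14 differed by 1.06, 1.05 and 1.40 without passing (limma adjusted p = 0.0612, 0.0775 and 0.133). H2BC15 read 6.46 and 6.24 with shNTC and 6.09 and 6.28 with shEZH2, a difference of -0.17 (limma adjusted p = 0.782), while in Pfeiffer it went from 4.19 to 5.98.

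**Figure D2:**
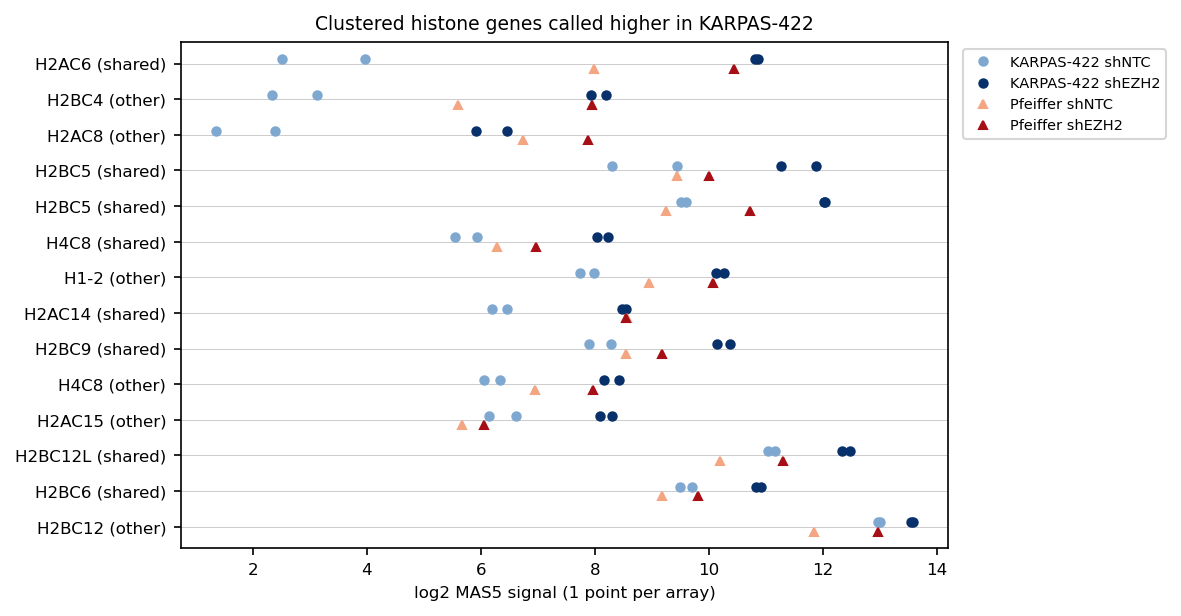
log2 MAS5 signal on each of the 6 arrays (1 point per array, circles for KARPAS-422 and triangles for Pfeiffer) for the 14 probe sets annotated to 1 clustered gene (8 of them shared) called higher in KARPAS-422, ordered by the KARPAS-422 difference. In every line of the plot both dark circles lie to the right of both light ones, which choosing by the call favours. H2AC6 spans 2.51 to 10.86, and H2AC14 shows the 2 Pfeiffer arms on top of each other at 8.56 and 8.54.

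Among linker histones, H1-2 rose. It read 7.73 and 7.98 with shNTC and 10.13 and 10.27 with shEZH2, and 8.94 and 10.07 in Pfeiffer. The KARPAS-422 arms were separated by far more than the replicates, with a difference of 2.34 (SE 0.15, limma adjusted p = 3.50e-04), and the Pfeiffer difference was 1.13. H1-6, a testis linker gene, was near the median with replicates far apart (6.01 and 6.84 with shNTC, 3.98 and 6.14 with shEZH2), and its difference of -1.36 did not pass (SE 0.72, limma adjusted p = 0.223).

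H4C8, a core histone H4 gene, rose on both of its probe sets. The probe set of the other type read 6.33 and 6.05 with shNTC and 8.16 and 8.42 with shEZH2, a difference of 2.10 (SE 0.23, limma adjusted p = 0.00251), and 6.95 and 7.96 in Pfeiffer. The shared one read 5.55 and 5.93, then 8.04 and 8.22, a difference of 2.39 (SE 0.27, limma adjusted p = 0.00278; 1.55 with 64 added to each linear signal), and 6.28 and 6.96 in Pfeiffer. The arms did not overlap on either probe set. In the opposite direction went 1 of 5 probe sets annotated to the same 14 H4 genes, H4C8 among them, of which 2 were bright enough to test. It read 10.93 and 10.46 with shNTC and 9.81 and 9.91 with shEZH2, and fell from 11.29 to 10.22 in Pfeiffer. This was the single clustered probe set called lower, with a difference of -0.83 (SE 0.16, limma adjusted p = 0.0152). Leaving out shEZH2 replicate 1 (-0.78, adjusted p = 0.0736) or shEZH2 replicate 2 (-0.88, 0.0552) ended that call, as did a variance model without the intensity trend (0.1). The other tested probe set of these 14 genes, a shared one, lay on the other side of 0 in KARPAS-422, with 6.68 and 7.15, then 7.74 and 7.34, a difference of 0.62 that did not pass (SE 0.25, limma adjusted p = 0.124), and it read 9.01 and 8.06 in Pfeiffer. The 2 probe sets thus gave no common direction for these genes in KARPAS-422. H4C4, H4C5 and H4C11 differed by 0.59, -0.24 and -0.22 and did not pass.

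Clustered H3 genes were read together by a probe set annotated to 10 H3 genes of chromosome 6. It read 6.29 and 5.87 with shNTC and 7.88 and 7.93 with shEZH2, and 7.02 and 9.24 in Pfeiffer. Its KARPAS-422 difference of 1.83 (SE 0.23, limma adjusted p = 0.00403; 1.20 with 64 added) was smaller than its Pfeiffer difference of 2.22. The probe sets of single H3 genes did not pass: H3C6 differed by 0.20, H3C7 by -0.49 and H3C11 by -2.26. H3C11 read 6.27 and 4.50 with shNTC and 1.64 and 4.61 with shEZH2, so the arms overlapped (SE 1.11, limma adjusted p = 0.19). A shared probe set annotated to 1 H3 and 1 H2A gene read 3.07 and 3.45, then 7.51 and 7.74, and 5.69 and 7.41 in Pfeiffer. Its difference was 4.36 (SE 0.40, limma adjusted p = 0.0013), or 1.83 with 64 added to each linear signal, and another H2A/H3 probe set rose by 1.75 (limma adjusted p = 0.00284).

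Differences are given along the chromosome 6 cluster in the order of the genes. RefSeq places 55 protein-coding histone genes there in 4 blocks separated by more than 200 kb, with 2, 32, 5 and 16 genes. Of these, 0, 14, 2 and 8 were tested on a probe set of 1 symbol, and 0, 8, 1 and 2 were called higher on the brightest such probe set, where 12.2% of every gene tested were higher on its brightest probe set. The blocks were not tested against each other. Of 11 divergent H2A/H2B pairs with starts within 500 bases of each other, 3 had both genes tested on probe sets of 1 symbol, and in 1 of the 3 neither probe set was shared. H2AC6, read by a shared probe set, and H2BC4 both rose, by 7.60 and 5.33. In the second pair H2AC14, also on a shared probe set, rose by 2.19 while H2BC14, at 1.40, did not pass. In the third, with no shared probe set, H2AC15 rose by 1.83 and H2BC15 differed by -0.17 without passing, and the difference between the neighbours was not tested.

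**Figure D3:**
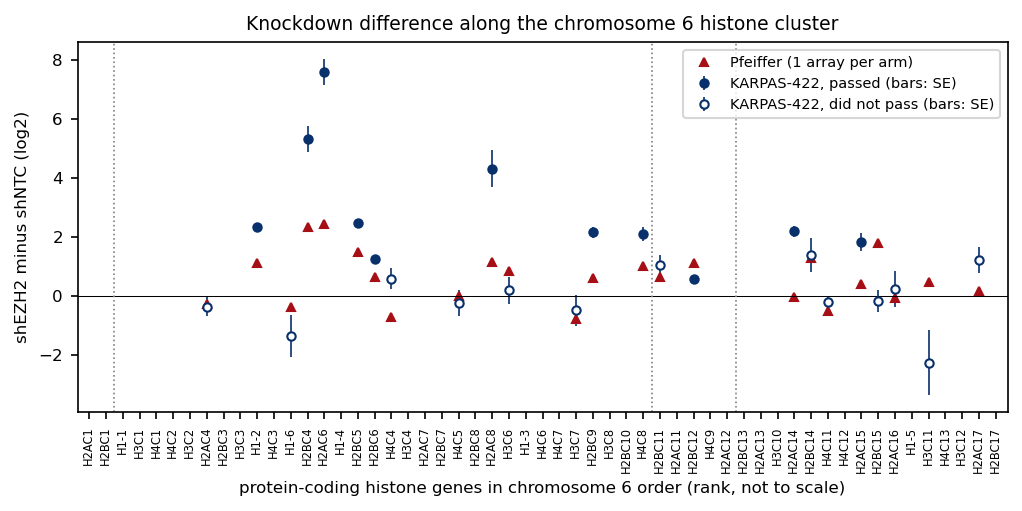
shEZH2 minus shNTC (log2 MAS5 signal) for protein-coding histone genes in their order on chromosome 6 (rank, not to scale; dotted lines part the 4 blocks), from the brightest tested probe set of each gene. Circles are KARPAS-422 with standard errors (filled where limma's adjusted p was under 0.05), triangles are Pfeiffer with 1 array per arm; the highest points are H2AC6 at 7.60 and H2BC4 at 5.33, and genes with no tested probe set of their own have no point.

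Shared probe sets cannot assign a signal to 1 gene, since probes that end in _x_at or _s_at may bind the transcripts of several near-identical histone genes. Of the clustered shared probe sets, 14 of 19 rose and none was called lower, also at limma's unadjusted p under 0.05 (median difference 1.54), and of the others 11 of 25 rose and 1 fell (median 1.05). Over every probe set tested, 11.2% of shared and 12.5% of other probe sets were higher, and 12.4% and 5.66% were lower. On probe sets that were neither shared nor annotated to several genes, 6 of 19 clustered ones rose: those of H2BC12, H2AC15, H4C8, H1-2, H2AC8 and H2BC4. Of these, H2AC15 and H2BC4 could enter the test through the KARPAS-422 shEZH2 group in which they were high. H2BC11, H2BC14 and H3C6, among the 19 but not called, could enter in the same way. The median difference of the 19 was 0.58, and none was called lower, also at an unadjusted p under 0.05. Without any shared probe set in the fit, 13 histone probe sets were called higher and 2 lower of 34 tested.

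Replication-independent genes showed mostly small differences between the arms. The H2A.Z genes, whose product marks promoters, gave small falls in KARPAS-422. H2AZ1 read 14.20 and 14.04 with shNTC and 13.84 and 13.76 with shEZH2, a difference of -0.32 (SE 0.08, limma adjusted p = 0.0343), and 13.99 and 13.84 in Pfeiffer. Its other probe set differed by -0.26 and did not pass (adjusted p = 0.0523). Quantile normalization gave -0.08 for the first (adjusted p = 0.276) and cyclic loess -0.01 (0.908), and leaving out shNTC replicate 1, shEZH2 replicate 1 or shEZH2 replicate 2 also ended the call (0.174, 0.0797 and 0.137). H2AZ2 on its brightest probe set read 13.08 and 12.94, then 12.55 and 12.39, and 12.10 and 12.03 in Pfeiffer. That difference was -0.54 (SE 0.09, limma adjusted p = 0.011), and it missed the threshold without shNTC replicate 1 (-0.47, 0.0547), without shEZH2 replicate 2 (-0.46, 0.0555) and without the intensity trend (0.105). A second H2AZ2 probe set fell by 0.39 (limma adjusted p = 0.0482), a call lost without any 1 of the 4 KARPAS-422 arrays (adjusted p 0.12 to 0.162), and 2 others differed by -0.08 and -0.24 and did not pass.

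MACROH2A1, which encodes the macroH2A1 variant with its large non-histone domain, was read by 6 tested probe sets that did not move together. The brightest, a shared one, read 13.72 and 13.65 with shNTC and 13.40 and 13.42 with shEZH2, and 13.82 and 13.78 in Pfeiffer. Its difference of -0.27 (SE 0.07, limma adjusted p = 0.037) became -0.11 under quantile normalization and 0.00 under cyclic loess (adjusted p = 0.187 and 0.968), and it lost its call without any 1 of the 4 KARPAS-422 arrays (adjusted p 0.0951 to 0.177). A second shared probe set read 12.38 ± 0.02 with shNTC and 12.04 ± 0.06 with shEZH2 (mean and SD, n = 2 each), a difference of -0.34 (SE 0.08, limma adjusted p = 0.0301) that also lost its call under quantile normalization (-0.23), cyclic loess (-0.18) and each array left out (adjusted p 0.0714 to 0.121). A probe set of the other type rose: it read 5.13 and 6.23 with shNTC and 7.61 and 7.63 with shEZH2, and 9.21 and 9.70 in Pfeiffer. That difference was 1.94 (SE 0.35, limma adjusted p = 0.012), or 1.15 with 64 added to each linear signal, and it missed the threshold without shEZH2 replicate 1 (adjusted p = 0.0596) or replicate 2 (0.0584). The remaining 3 differed by 0.43, 0.24 and 0.07 and did not pass.

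H3.3, the replacement H3 variant encoded by H3-3A and H3-3B, was read by 9 tested probe sets, 8 of which also carry another symbol. Of these, 1 fell by 0.31 (limma adjusted p = 0.0403) and 1 rose by 0.70 (0.043), and neither call held under quantile normalization (-0.09 and 0.50, adjusted p = 0.27 and 0.114). The fall was lost without any 1 of the 4 KARPAS-422 arrays (adjusted p 0.059 to 0.195), and the rise without shEZH2 replicate 1 (0.179), shNTC replicate 2 (0.45, 0.131) or shEZH2 replicate 2 (0.0977). The falling one read 13.97 and 13.82 with shNTC and 13.63 and 13.54 with shEZH2, and 13.94 and 13.90 in Pfeiffer. The rising one read 8.79 and 8.30, then 9.34 and 9.14, and went the other way in Pfeiffer, from 10.10 to 9.53. The probe set of H3-3A alone read 7.67 and 7.52, then 7.42 and 7.41, and 7.86 and 7.09 in Pfeiffer, and did not pass (-0.18, adjusted p = 0.553). H2AX, whose product is phosphorylated at DNA breaks, was not called on any of 3 probe sets. The brightest read 10.62 and 10.56 with shNTC and 10.41 and 10.29 with shEZH2 (difference -0.24, SE 0.10, limma adjusted p = 0.135) and 11.92 and 11.66 in Pfeiffer, and the other 2 differed by -0.30 and -0.28. H1-10, a linker variant, read 11.82 and 11.36, then 11.80 and 11.47, a difference of 0.05 (SE 0.18, limma adjusted p = 0.882), and 8.44 and 7.61 in Pfeiffer. H2AJ was dim in KARPAS-422 (1.83 to 4.92 on its 3 tested probe sets) and its differences of 0.71, 0.08 and 0.79 did not pass.

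**Figure D4:**
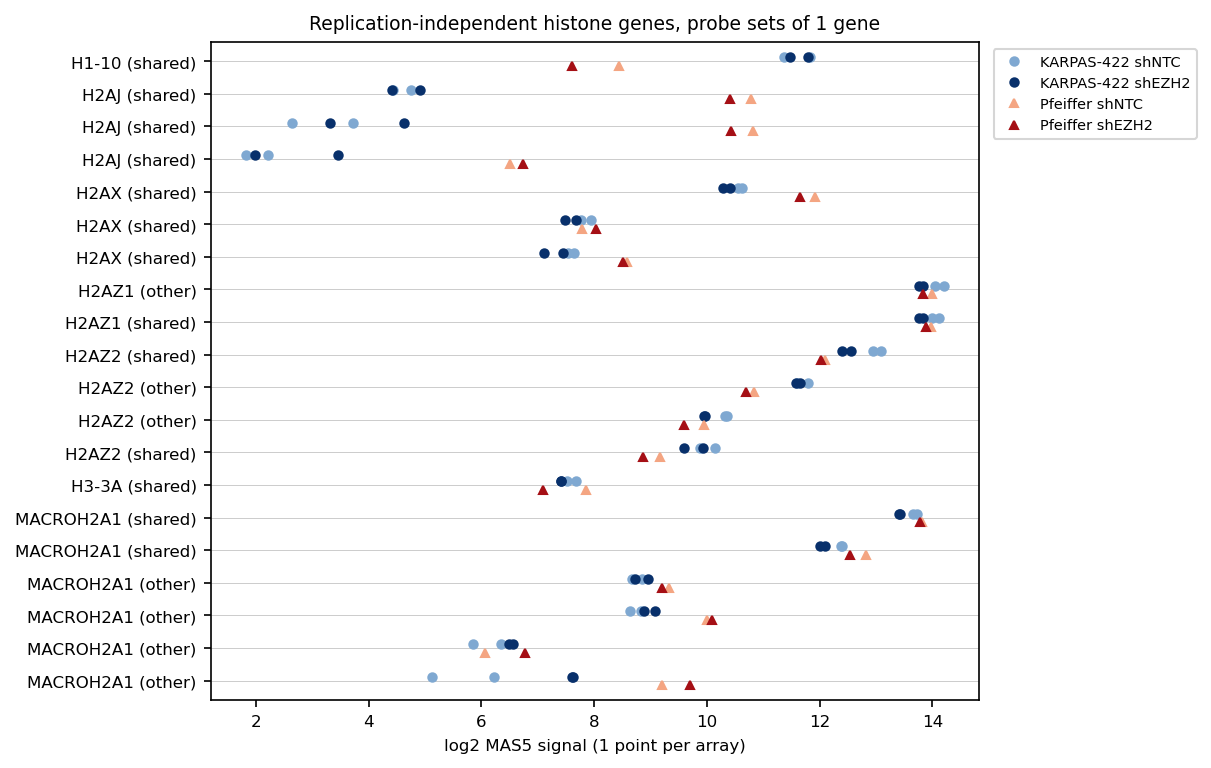
log2 MAS5 signal on each of the 6 arrays (circles for KARPAS-422, triangles for Pfeiffer, 1 point per array) for the 20 tested probe sets of 1 replication-independent gene. Light and dark points of a line mostly lie within 1 log2 unit of each other; the wide gaps separate the lines, with H2AJ low in KARPAS-422 and H1-10 low in Pfeiffer, and the bottom row is the MACROH2A1 probe set that rose by 1.94.

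In Pfeiffer, with 1 array per arm and no test, 16 histone probe sets were more than 1 log2 unit higher with shEZH2 and 1 was lower, of the 72, where 3.75% and 1.72% of every probe set tested passed that size. The 17 in all became 36 with no filter on dim probe sets and 11 with a filter on the mean level. All 17 were clustered (16 of 44 higher), and the median difference was 0.64 for clustered and -0.08 for replication-independent probe sets, against 0.03 overall. As a measure of array noise, KARPAS-422 replicates differed by more than 1 log2 unit on 10 of the 72 in shNTC and 5 in shEZH2 (6.66% and 4.50% of every probe set tested). The largest Pfeiffer differences were 2.45 for H2AC6, 2.33 for H2BC4, 2.22 for the H3 probe set of 10 genes, 1.79 for H2BC15 and 1.72 for the H2A/H3 pair, followed by 1.58 for H2BC21. Of the 27 called higher in KARPAS-422, 25 had a Pfeiffer difference above 0, where 73.04% of all 3742 probe sets called higher did. The difference was larger in KARPAS-422 for 25 of the 27. They were chosen by their KARPAS-422 difference, which favours that outcome, so this count does not compare the lines.

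Fitted over both lines with line as a covariate, 17 histone probe sets were higher and 1 lower, all clustered, where 2.61% and 1.23% of every probe set tested were called. All 17 were also called higher in KARPAS-422, with which they share the KARPAS-422 arrays. The largest were H2AC6 at 5.88 (SE 0.93, limma adjusted p = 0.0291), H2BC4 at 4.33 (SE 0.62, 0.024) and the H2A/H3 pair at 3.48 (SE 0.55, 0.0292). The H2BC4 and H2A/H3 probe sets were above the table's median on shEZH2 arrays alone. They thus entered this fit through the arm in which they were high, which favours a call. The bright H4 probe set of 14 genes was the one lower (-0.91, SE 0.14, limma adjusted p = 0.0284), while the other tested probe set of those genes gave 0.10 (SE 0.34, 0.884). H1-2 rose by 1.94 (SE 0.24, limma adjusted p = 0.019), H2BC5 by 2.14 on its first probe set (SE 0.19, 0.00986) and H2BC12L by 1.24 (SE 0.10, 0.00986). No replication-independent probe set was called by limma (8 of 28 at an unadjusted p under 0.05). Each of these 18 calls was lost without the intensity trend and when any 1 of the 4 KARPAS-422 arrays was left out; without shNTC replicate 1, for example, H2AC6 stood at 4.97 with an adjusted p of 0.0934.

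The 2 lines were also set against each other directly. The KARPAS-422 difference lay above the Pfeiffer difference on 46 of the 72 histone probe sets, and on 15685 of all 31099 tested. Among clustered probe sets it did so on 33 of 44, and among replication-independent ones on 13 of 28. By limma's test of the gap, 3 of the 72 were called higher and none lower (0.820% and 0.222% of every probe set tested). These were H2AC6, by 5.15 (SE 0.75, limma adjusted p = 0.0342), H2AC14, by 2.21 (SE 0.33, 0.0379), and the second H2A probe set of H2AC18 and H2AC19, by 1.90 (SE 0.25, 0.029). All 3 are of the shared type, and the other probe sets of H2AC18 and H2AC19 gave 1.17 (SE 0.22, 0.0748) and, in the opposite direction, -0.82 (SE 0.86, 0.69). Without shEZH2 replicate 1 their adjusted p was 0.142, 0.164 and 0.103, and without replicate 2 it was 0.122, 0.145 and 0.0723. None was called with no filter on dim probe sets or without the intensity trend, and with 64 added to each linear signal the H2AC6 value was 2.47.

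**Figure D5:**
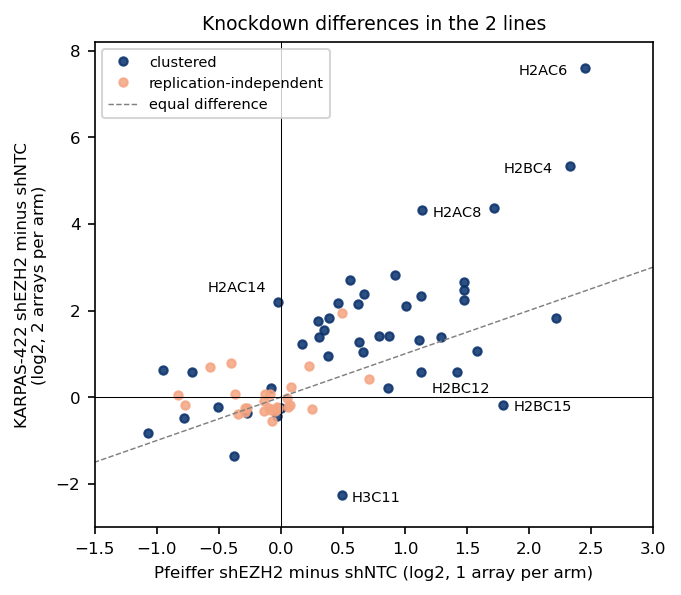
shEZH2 minus shNTC (log2 MAS5 signal) in KARPAS-422 (vertical axis, 2 arrays per arm) against Pfeiffer (horizontal axis, 1 array per arm), 1 point for each of the 72 histone probe sets tested; the dashed line marks equal differences. Clustered probe sets spread to the upper right, mostly above the line, with H2AC6 at 7.60 and 2.45; H2BC15 and H3C11 lie below 0 in KARPAS-422 and above 0 in Pfeiffer, and replication-independent probe sets gather near 0.

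Some histone genes differed in level between the lines apart from the hairpin, as did many probe sets over the whole array. With arm as a covariate, 10 histone probe sets (13.9%) read higher in KARPAS-422 and 23 (31.9%) lower, where 22.9% and 24.05% of every probe set tested did. A call between the lines was thus not particular to histone genes. H2AJ, a replication-independent H2A gene, was lower in KARPAS-422 on all 3 of its tested probe sets, with differences from -7.05 to -4.24 (limma adjusted p from 2.96e-06 to 0.00686). On the probe set with the widest gap it read 2.64 to 4.62 in KARPAS-422, against 10.82 and 10.43 in Pfeiffer. The linker variant H1-10 went the other way and was higher in KARPAS-422 by 3.59 (SE 0.22, limma adjusted p = 1.02e-05). Among clustered genes, H2AC25 read 6.44 ± 0.28 in KARPAS-422 shNTC (mean and SD, n = 2), and 9.45 and 9.42 in Pfeiffer (difference -3.21, SE 0.22, limma adjusted p = 1.81e-05). The gene's other probe set, a shared one, was too dim to test and showed no such gap, with 5.44 to 6.38 in KARPAS-422 and 5.48 and 6.16 in Pfeiffer. H3C7 read 3.78 to 4.67 in KARPAS-422 against 7.49 and 6.71 in Pfeiffer (difference -2.71, SE 0.45, limma adjusted p = 0.0017). Neither H2AC25 nor H3C7 was called for the hairpin. H2AX was lower in KARPAS-422 by 1.32 on its brightest probe set (SE 0.10, limma adjusted p = 2.79e-05) and by 1.11 on a second (SE 0.19, 0.00181), but not called on the other one tested (-0.19, SE 0.20, 0.479). H2AZ2 was higher in KARPAS-422 on all 4 probe sets, by 0.38 to 0.89 (limma adjusted p from 2.31e-04 to 0.0207). These line differences rest on 4 KARPAS-422 and 2 Pfeiffer arrays.

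Proteins that carry histones and load them onto DNA were examined as a list of 39 genes for histone chaperones, importins, chromatin remodellers and histone mRNA processing. Of the 38 tested, none was called higher by limma (2 at an unadjusted p under 0.05) and 14 fell in KARPAS-422 (median difference -0.26), where on their brightest probe set 12.2% of every gene tested rose and 11.05% fell. SSRP1, a subunit of the FACT chaperone, fell by 0.81 (SE 0.09, limma adjusted p = 0.0026). CHAF1A, the large subunit of chromatin assembly factor 1, fell by 0.80 (SE 0.10, 0.00414), the importin IPO4 by 0.79 (SE 0.13, 0.00804) and the chaperone ASF1A by 0.62 (SE 0.10, 0.00851). SLBP, which binds the stem-loop of clustered histone mRNAs, fell by 0.29 (SE 0.08, limma adjusted p = 0.0426), and NPAT, the coactivator of clustered histone genes, differed by 0.00 (SE 0.11, 0.997). In a list of 35 S phase genes, 28 of 34 tested fell and none was called higher, also at an unadjusted p under 0.05 (median -0.60), led by GINS4, MCM7, ORC1 and CDC45 at -0.97, -0.95, -0.91 and -0.86. In Pfeiffer the medians of these lists were -0.06 and -0.35. S phase genes thus read lower on the same arrays on which clustered histone probe sets read higher, and the part of either in the other was not tested.

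Signs of RNA quality were read on the same arrays. The 3′ minus 5′ log2 signal of ACTB, a gauge of RNA integrity, was 0.0593 and 0.083 in KARPAS-422 shNTC, 0.138 and 0.175 in shEZH2, and 0.109 and 0.126 in the Pfeiffer arms. For GAPDH it was -0.182 and -0.158, then -0.169 and -0.241, and -0.148 and -0.0999. ACTB was thus slightly higher in the shEZH2 arms of both lines, and its part in the histone differences was not tested. The labels say only that labelling followed the manufacturer, so the primer used is not given in the sources used here, and whether stem-loop or polyadenylated histone transcripts gave the signal was not tested.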

How the data were processed

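The authors deposited 1 table of log2 signals made with Affymetrix MAS5, per the submitters' processing notes (which give no version), for 54675 probe sets on 6 arrays. The log base was read from the values: the 2% trimmed mean of 2 to the power of each value was 500.0 on every array, so the deposited log2 values were scaled per array and not normalized further, and dim signals (down to -4.57) spread widely. Detection calls and scan dates were not used here, so no batch was tested, and the number of arrays limits the precision. Probe sets were named by a platform annotation: 41097 had 1 symbol, 1801 several, 11721 none, and 62 were controls, which were left out. Gene IDs of 41043 matched RefSeq, and 0 symbols changed.

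Under R 4.3.3, limma 3.58.1 fitted 4 groups of line and hairpin on all 6 arrays, with 2 residual and 5.02 prior degrees of freedom; eBayes used an intensity trend, tests were two-sided, and p-values were adjusted by Benjamini-Hochberg over 31099 probe sets. A second model had line and arm as terms. Pfeiffer had no test of its own. No value was added before the log, since values already were log2. On simulated data for the KARPAS-422 comparison (31099 probe sets, 200 changed), 59% of 1-unit and 83% of 2-unit changes were recovered, with 25 unchanged probe sets called. Those 25 were a larger share of the simulated calls than the 0.05 threshold names. The real comparison called 3742 higher and 2506 lower, far more than 200, so the simulated rates cannot be carried over to it.

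Values on every array are given for the largest calls in KARPAS-422 (up to 12 a direction), for calls over both lines and between lines (up to 5 each) and for each tested replication-independent gene. Probe sets of several symbols are described by family. From the lists of histone supply and S phase genes, up to 4 called genes with the largest differences are named, and SLBP and NPAT were named after their values were seen. The members and lists were chosen with earlier results of these data known. Alternatives were other normalizations, filters, additions to the linear signal, variance models, units of the fit and single arrays left out.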

Additional observations from a re-analysis of the deposited data

Results flagged for a closer look

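The EZH2 hairpin's difference was larger in KARPAS-422 than in Pfeiffer by limma's test of the difference between lines for 3 histone probe sets. H2AC6 differed between the lines by 5.15 (limma adjusted p = 0.0342), with KARPAS-422 at 7.60 and Pfeiffer at 2.45. For H2AC14 the gap was 2.21 (adjusted p = 0.0379), with 2.19 in KARPAS-422 and -0.02 in Pfeiffer. A shared H2A probe set annotated to H2AC18 and H2AC19 gave 1.90 (adjusted p = 0.029), from 2.82 and 0.92. The other 2 tested probe sets of those genes were not called and differed in sign, with 1.17 (limma adjusted p = 0.0748) and -0.82 (0.69). In each case the Pfeiffer arms were 1 array each, and their spread was taken to be like that of KARPAS-422. The 3 probe sets are all of the shared type.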

How the results depend on the processing

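The count of 27 histone probe sets called higher in KARPAS-422 was 19 to 29 in every alternative that kept all probe sets, and 20 to 28 when 1 array was left out. It was 13 of 34 tested without shared probe sets and 12 of 34 with the brightest probe set per gene, where fewer were tested. With a filter on the 4 arrays other than KARPAS-422 shEZH2, chosen after seeing the data, 24 were called higher and the clustered median was 1.35.

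The 7 lower calls became 3 under quantile normalization, 3 under cyclic loess, 2 with no filter, 0 without the intensity trend, 2 without shared probe sets and 3 with the brightest probe set per gene, and 0 to 3 with 1 array left out. The brightest MACROH2A1 probe set turned from -0.27 to 0.00 under cyclic loess, with an adjusted p of 0.968. At 0 lower calls by limma without the trend, 4 had an unadjusted p under 0.05, and the adjusted p of the 7 lay between 0.1 and 0.218. The 18 calls over both lines became 0 without the trend, 8 without shared probe sets and 10 per brightest probe set, and 0 in each run with 1 array left out, where 30 to 36 of the 72 had an unadjusted p under 0.05 by limma (35 without the trend). The 3 calls between lines became 0 with no filter, 0 without the trend and 0 without shared probe sets (24, 20 and 11 at an unadjusted p under 0.05), and 0 to 5 with 1 array left out. Calls between the lines' levels went from 33 to 15 without shared probe sets and 15 per brightest probe set, and were 29 with 1 array left out. Pfeiffer's 17 probe sets past 1 log2 unit became 36 with no filter, 11 with a filter on the mean, 10 without shared probe sets and 11 per brightest probe set. The clustered median of 1.40 (1.19 and 1.51 in arrays of the same number, SD 0.229) was 0.95 with no filter, 1.64 with a filter on the mean, 1.02 with 64 added to each linear signal, 1.05 without shared probe sets and 1.06 per brightest probe set, and 1.21 to 1.59 with 1 array left out. Beyond the smaller number of probe sets or arrays in a fit, the cause was not tested.

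Replicate numbers were shared between the KARPAS-422 arms, but deviations of same-numbered arrays correlated at r = 0.026, and with 2 pairs the numbers were taken as names only. With the replicate number as a block, 28 probe sets were higher and 11 lower in KARPAS-422, 3 were called over both lines and 7 between lines, and the clustered median stayed 1.40.

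Of the alternative values for single called probe sets in KARPAS-422, 512 kept direction and call, 73 lost the call and 1 turned; over both lines 163 kept it and 119 lost it, and between lines 32 and 12. The median over every probe set tested was 0.04 in KARPAS-422 and -0.05 under quantile normalization. With 2 residual degrees of freedom, small differences of the dim probe sets could not be measured here.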
